A study of Mus musculus with 2 samples.

Results

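The cytosolic ribosomal protein genes are described here across 12 cell clusters of irradiated mouse colon. Members were taken by symbol: names beginning Rpl or Rps and followed by a digit, a or p, without the Rps6k kinases and without symbols marked -ps as pseudogenes. The rule found 89 of 17044 measured genes. Of these, 77 encode structural proteins of the ribosome, 31 of the small and 46 of the large subunit. The other 12 are paralogs (Rps27l, Rpl3l, Rpl7l1, Rpl22l1, Rpl36al), retrocopies or processed pseudogenes (Rps27rt, Rps4l, Rps3a2, Rps3a3, Rpl6l, Rpl37rt) and Rps19bp1, a protein that binds Rps19 and is no ribosomal protein.

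The cells were colon epithelium of wild-type C57BL/6 mice, taken 2 weeks after irradiation, in a study of colonoid transplantation for radiation proctitis. There were 2 single-cell RNA libraries of 1 group, and both carry the same title apart from the library number. Unirradiated or untreated mice were not analysed here. The age and number of the mice, and whether the libraries came from separate mice, are not given in the labels. The deposited table holds 1 mean per gene and cluster, so there was no replicate, no test was possible, and every fold below compares 2 sets of averaged cells.

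Ribosomal proteins join the ribosomal RNAs in the nucleolus to form the small subunit, which reads the mRNA, and the large subunit, which joins amino acids. Most of their mRNAs begin with a C followed by a run of pyrimidines, the 5′ terminal oligopyrimidine (TOP) motif, through which mTOR and Larp1 control their translation, and Myc raises the output of the whole set. In the colon, dividing crypt cells make ribosomes for growth, and surface cells stop doing so as they mature.

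The sequence around the start site, where this motif would lie, is given for members that recur below. Each line gives 30 bases, 10 before and 20 from the start site annotated by RefSeq (mouse build GRCm38.p6), 5′ to 3′ on the gene's strand, with the longest run of C and T in capitals. Rpl13a is shown as a member close to the average pattern, Rpl12, Rps9, Rps27, Rps27l and Rpl22l1 as members that departed from it, and Rack1, Fau and Eef1a1 as genes outside the naming rule. The marked run need not begin at the annotated start, and that of Rps27l lies wholly before it.
Rpl13a, chr7:45128726-45128755, minus strand: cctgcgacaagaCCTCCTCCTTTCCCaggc
Rpl12, chr2:32961702-32961731, plus strand: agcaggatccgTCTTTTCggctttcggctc
Rps9, chr7:3704031-3704060, plus strand: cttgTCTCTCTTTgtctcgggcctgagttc
Rps27, chr3:90213629-90213658, minus strand: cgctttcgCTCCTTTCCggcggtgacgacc
Rps27l, chr9:66946076-66946105, plus strand: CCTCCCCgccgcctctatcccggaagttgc
Rpl22l1, chr3:28805498-28805527, plus strand: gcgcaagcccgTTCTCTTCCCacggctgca
Rack1, chr11:48800350-48800379, plus strand: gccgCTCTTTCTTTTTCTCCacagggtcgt
Fau, chr19:6057937-6057966, plus strand: gcccccaCTTCTTCCTCTTTCTTgactcca
Eef1a1, chr9:78481705-78481734, minus strand: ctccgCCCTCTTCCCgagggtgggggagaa

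The RefSeq table of start sites held 57 of the 77 structural members. A run of at least 8 C or T letters within 20 bases of the start on either side was found in 28 of them (49.1%), against 18.4% of the 27025 genes in the table. CTTTCC in the same window and strand was found in 10 members (17.5%) against 2.298% of all genes. CCGGAAG, the letters of an Ets-family binding motif, lay on either strand of the 300 bases from 250 before to 50 after the start in 24 members (42.1%) against 9.93% of all genes. TATAAA, the letters of a TATA box, lay in the 250 bases upstream of 1 member (1.75%) against 8.94% of all genes. Members thus held the pyrimidine and Ets letters at a higher share than all genes, and the TATA letters at a lower one. These are matches of letters, counted once per gene, and not sites of binding.

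The table holds 3082 cells, a number recovered from the arithmetic of the averages, and from 19 to 482 cells made up a cluster. Median totals per cell ran from 1406.5 unique molecular identifiers (UMIs, single counted RNA molecules) in cluster 5 to 19522 in cluster 7. All depths here are over the 2299 cells whose total could be recovered, and totals below 500 UMIs were left out. Coverage was uneven, with 290 of 482 cells in cluster 0, 230 of 324 in cluster 4, 182 of 274 in cluster 5 and 217 of 247 in cluster 7. Whether the other cells differed in depth was not tested. Clusters were checked against marker lists, with 8 measured genes in each list used for a name. Fewer were measured in some others, such as 6 for T cells, 4 for endothelial cells and 1 for fibroblasts. All 8 enteroendocrine markers were highest in cluster 11, all 8 cycling markers in cluster 7, 7 of 8 goblet markers in cluster 0 and 7 of 8 neutrophil markers in cluster 5, so these are called enteroendocrine-like, cycling-like, goblet-like and neutrophil-like. Clusters 8 and 9 are called absorptive colonocyte-like, with a summed marker level of 256 and 234 UMIs per 10000 against at most 66.8 elsewhere. Cluster 10 held macrophage, T cell and mast cell markers and has no name here, and the remaining clusters are called by number. The epithelial list summed to 45.7 per 10000 in cluster 5 and 26.4 in cluster 10, against 114 to 351 in the other 10, so those 2 clusters went against the epithelial label. All genes could enter the authors' clustering, so differences between clusters are descriptions.

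Ribosomal protein mRNA took from 3.97% to 22.7% of a cell's UMIs, averaged over the cells of a cluster, a 5.73-fold range. Each cell counts equally in these shares, whatever its depth. It was highest in cluster 2 (22.7%) and the cycling-like cluster 7 (22.7%), which were level to 3 digits, and 18.2% to 18.8% in clusters 6 and 10. Clusters 0, 1, 3 and 9 lay between 15.1% and 16.2%, and the enteroendocrine-like cluster 11 held 10.4%. Far below stood cluster 4 at 5.82%, the neutrophil-like cluster 5 at 5.51% and the absorptive colonocyte-like cluster 8 at 3.97%. The 95% Poisson intervals of these shares, which cover counting error only, were 3.93% to 4.01% for cluster 8 and 22.7% to 22.8% for cluster 2. No cluster lay between 5.82% and 10.4%, so the 3 low clusters formed a group apart.

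**Figure D1:**
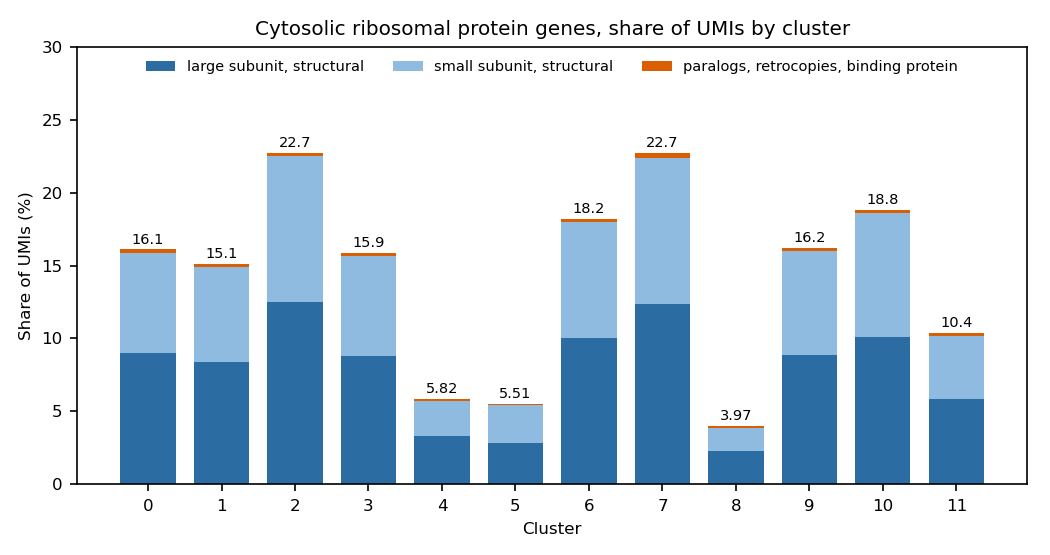
Share of UMIs (%), averaged over cells, held by the 89 ribosomal protein genes in each of the 12 clusters. Bars are stacked as large-subunit members, small-subunit members and the 12 paralogs, retrocopies and binding protein, with the total printed above each bar. Clusters 4, 5 and 8 stand at 5.82%, 5.51% and 3.97%, and clusters 2 and 7 at 22.7%.

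Per cell, an estimate gave a different order. It multiplied a cluster's share by the median total of its cells with a recovered total. This takes the share as the same at every depth, which was not tested. The product was 4437 ribosomal protein UMIs in cluster 7 and 3109 in cluster 2. In clusters 4, 8 and 5 it was 696, 260 and 77.4. Cluster 6, at 455, lay below cluster 4 by this measure. The rest of the median total, UMIs of other genes, was 11266 in cluster 4, close to the 10564 of cluster 2. The lower quartile of depth in cluster 4, however, was 4604.5 UMIs, against 11579 in cluster 2 and 4655.5 in cluster 8. For the shallowest clusters, 5 and 6, the estimate was 1329 and 2043 UMIs of other genes, with ribosomal shares of 5.51% and 18.2%. Over the 12 clusters the share had r = 0.43 with the log2 median depth, r = -0.22 with the mitochondrial share and r = -0.33 with the share of Malat1, a nuclear long noncoding RNA; all of these have the same total as denominator. Malat1 took 4.76% of UMIs in cluster 4 and 1.96% in cluster 8, and mitochondrially encoded genes 6.55% and 4.58%. The part of depth and RNA quality in the shares was not tested.

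Of the 89 members, 83 reached 1 UMI per 10000 in at least 1 cluster and were followed further, with 3276 genes in all. The 6 that did not were Rps4l, Rpl6l, Rps3a2, Rps3a3, Rpl3l and Rps19bp1. Each gene was set against its own mean in the other 11 clusters, with 0.1 per 10000 added to both. In cluster 8, 78 of 83 members were at least 2-fold lower, against 32.4 percent of all genes. In cluster 5 it was 73 members (54.6 percent of all genes), and in cluster 4 it was 71 (27.6 percent of all genes). The median member lay at -1.96 (cluster 8), -1.57 (cluster 5) and -1.39 (cluster 4) on the log2 scale. The medians of all genes there were -0.41, -1.12 and -0.37, so the distance between members and all genes was smallest in cluster 5. Cluster 11 added 2 members at least 2-fold lower (28.7 percent of all genes), Rplp1 and Rpsa. No member was 2-fold lower in clusters 0, 1, 2, 3, 6, 7, 9 and 10, where the shares of all genes were 22.9, 17.6, 16.0, 21.3, 17.5, 22.6, 21.5 and 34.3 percent. With the 50 highest other genes taken out of every total, the counts for clusters 8, 4 and 5 were 76, 66 and 55, and that scaling moved the median of all genes by up to 0.29 (cluster 5).

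Few members were 2-fold higher anywhere: 9 of the 996 pairs of member and cluster were, against 7.12 percent of such pairs over all genes, and 224 were 2-fold lower, against 26.4 percent. In cluster 7 there were 4 (6.59 percent of all genes), in cluster 6 there were 4 (3.75 percent) and in cluster 2 there was 1 (1.34 percent). They were Rpl12, Rps2, Rpsa and the paralog Rpl22l1 in cluster 7, Rpsa, Rps15, Rpl36 and Rpl38 in cluster 6, and Rpl12 in cluster 2. Without the shallow clusters 5 and 6, 4 pairs were 2-fold higher, 3 in cluster 7 and 1 in cluster 10.

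The 77 structural members kept nearly the same order of clusters. In 71 of them, clusters 4, 5 and 8 all lay below each of the other 9 clusters, an order held by 13.6 percent of all genes. The lowest cluster was 8 in 59 members (13.4 percent of all genes), 5 in 17 (32.5 percent) and 4 in 1 (5.62 percent), which was Rps25. The highest was cluster 2 in 33 (2.47 percent of all genes), cluster 7 in 31 (13.1 percent), cluster 6 in 10 (6.75 percent), cluster 10 in 2 (9.13 percent) and cluster 3 in 1 (5.59 percent). Clusters 2 and 7 could hardly be told apart by these genes: 38 of 77 were higher in 7, and 0 were at least 1.5-fold apart (26.3 percent of all genes). Cluster 2 also held 41.6 UMIs per 10000 of the summed neutrophil list, which stood at 1159 in cluster 5 and 3.602 in cluster 7, and its part in the level of cluster 2 was not tested.

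The 2 absorptive colonocyte-like clusters were at opposite sides of the gap. All 77 structural members were higher in cluster 9 than in cluster 8, and 76 were at least 2-fold higher (15.3 percent of all genes). The median difference was 2.16 on the log2 scale, against 0.06 for all genes. Rpl9 was the exception, with 25.4 per 10000 in cluster 9 and 18.5 in cluster 8. Median depth was 12871 UMIs in cluster 9 and 6558 in cluster 8. The marker sums were alike, as given above, but 5 of the 8 markers were highest in cluster 8 and 1 in cluster 9. The other 2 were highest in cluster 4, where the list summed to 53.5 per 10000.

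**Figure D2:**
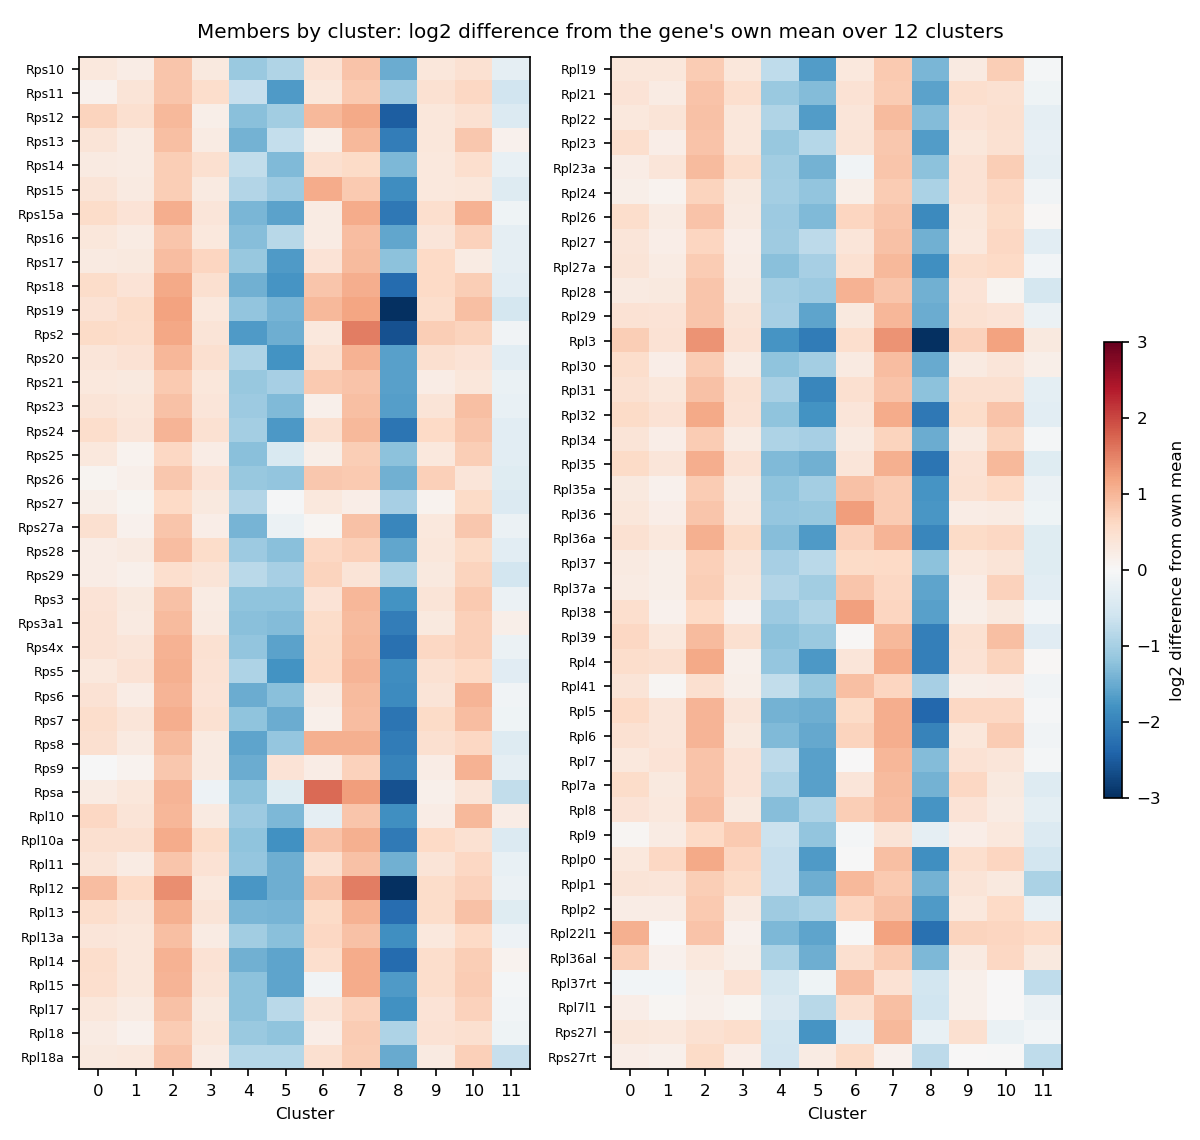
Colour gives the log2 difference of a gene's level in a cluster from that gene's own mean over the 12 clusters (UMIs per 10000 plus 0.1; colours end at 3 in either direction), for the 83 members that reached 1 per 10000, ordered as small subunit, large subunit and others. Blue columns at clusters 4, 5 and 8 run through nearly all members, with Rps9, Rps27 and Rps27a pale in cluster 5 and Rpl9 pale in cluster 8.

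The common profile was taken as the median over the 83 members of this log2 difference from the own mean. It was 0.91 in cluster 7, 0.86 in cluster 2, 0.62 in cluster 10, 0.30 to 0.47 in clusters 0, 1, 3, 6 and 9, -0.23 in cluster 11, -1.13 in cluster 4, -1.30 in cluster 5 and -1.69 in cluster 8. A correlation of 0.9 or more with the profile was seen in 73 of 77 structural members, against 3.79 percent of all genes, and the median was 0.98; members make up the profile, so this only says how alike they were. Of 996 pairs of member and cluster, 13 lay at least 2-fold from the profile (32.7 percent of such pairs over all genes). These 13 pairs belonged to 12 members and to clusters 5, 6 and 8 alone. Clusters 5 and 6 were the 2 shallowest by median depth, and 8 the third.

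The members closest to the profile were Rps3, a small-subunit protein at the mRNA entry, Rpl13a, Rpl11, Rpl21, Rps28, Rps23, Rpl26 and Rpl27a. Rps3 measured 5.80 UMIs per 10000 in its lowest cluster (8), 26.0 at the median and 41.1 in its highest (7). Rpl13a, known also for a role in silencing inflammatory mRNAs, measured 7.42, 33.9 and 50.4. Their 12 values therefore traced the profile itself: 3 low clusters, a high plateau and the highest level in clusters 2 and 7.

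In small-subunit members the furthest departures were in clusters 5, 6 and 8. Rps9, a protein of the mRNA entry known for its part in decoding accuracy, measured 5.34 per 10000 at the lowest (cluster 8), 25.6 at the median and 45.0 at the highest (cluster 10). In the neutrophil-like cluster 5 it stood at 29.1 (95% counting interval 27.3 to 30.96), 1.71 log2 units above the profile and above 8 other clusters. Rps9 was thus the structural member least correlated with the profile (r = 0.79).

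Rps27, a zinc finger protein of the small subunit, measured 12.97 (cluster 8), 28.6 at the median and 38.8 (cluster 2). Its 25.2 in cluster 5 lay 1.26 log2 units above the profile, and its highest value was 2.99 times its lowest, the smallest such ratio among structural members. Rps27a, made as a fusion with ubiquitin, measured 4.41 (cluster 8), 19.5 and 32.2 (cluster 7), and its 15.3 in cluster 5 lay 1.11 above. These were 3 of the 6 small-subunit members that were not 2-fold lower in the neutrophil-like cluster, beside Rps13, Rps25 and Rpsa. The part of the epithelial RNA in that cluster (45.7 per 10000 of the summed list) was not tested.

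Rpsa, the laminin receptor and a late-joining protein of the small subunit, behaved otherwise. It measured 2.45 per 10000 in cluster 8, 17.7 at the median and 50.1 in cluster 6, where it lay 1.23 log2 units above the profile. Cluster 6 is shallow, and it also held plasma cell markers (26.4 per 10000 summed over 5 measured genes, against at most 0.477 elsewhere) and enteroendocrine markers (19.98 per 10000, against at most 1.33 outside cluster 11). It had the highest value of 3 of 7 measured tuft cell genes and of 4 of 7 stem cell genes, and the part of any of these cells in the Rpsa level was not tested. Rps15, Rpl36 and Rpl38, the last a large-subunit protein known for selective translation of Hox mRNAs, were also highest there, at 38.6, 33.7 and 20.6.

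Rps19, the protein most often mutated in Diamond-Blackfan anaemia, measured 2.47 (cluster 8), 28.2 and 46.9 (cluster 2). In cluster 8 it lay 1.29 log2 units below the profile, with about 227 UMIs behind the value. Rps2, which lines the mRNA entry channel beside Rps3, measured 2.80 (cluster 8), 24.2 and 51.3 (cluster 7). Its fold in cluster 7 over the other clusters was 1.32 on the log2 scale, the largest of any structural member there.

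Among large-subunit members, Rpl12 and Rpl3 were lowest of all in cluster 8 relative to the rest. Rpl12, a protein at the base of the ribosomal stalk, measured 0.511 per 10000 in cluster 8 (0.375 to 0.679, about 47 UMIs), 10.1 at the median and 19.99 in cluster 7, a 39.1-fold range. It lay 1.81 log2 units below the profile in cluster 8 and 0.61 below in cluster 4, and 0.55 to 0.63 above in clusters 0, 2 and 7. Rpl12 therefore repeated the common pattern with a wider swing.

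Rpl3, which reaches into the peptidyl transferase centre, measured 1.12 (cluster 8; 0.915 to 1.36), 14.9 and 27.6 (cluster 2), a 24.6-fold range against a median of 6.90-fold over the structural members. It lay 1.46 log2 units below the profile in cluster 8. Rpl9, by contrast, measured 9.69 (cluster 5), 24.4 and 38.4 (cluster 3), and was the 1 structural member highest in cluster 3. At 18.5 in cluster 8 it was 1.43 above the profile, so in this member the low level of cluster 8 was nearly absent (log2 fold -0.38 over the other clusters).

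**Figure D3:**
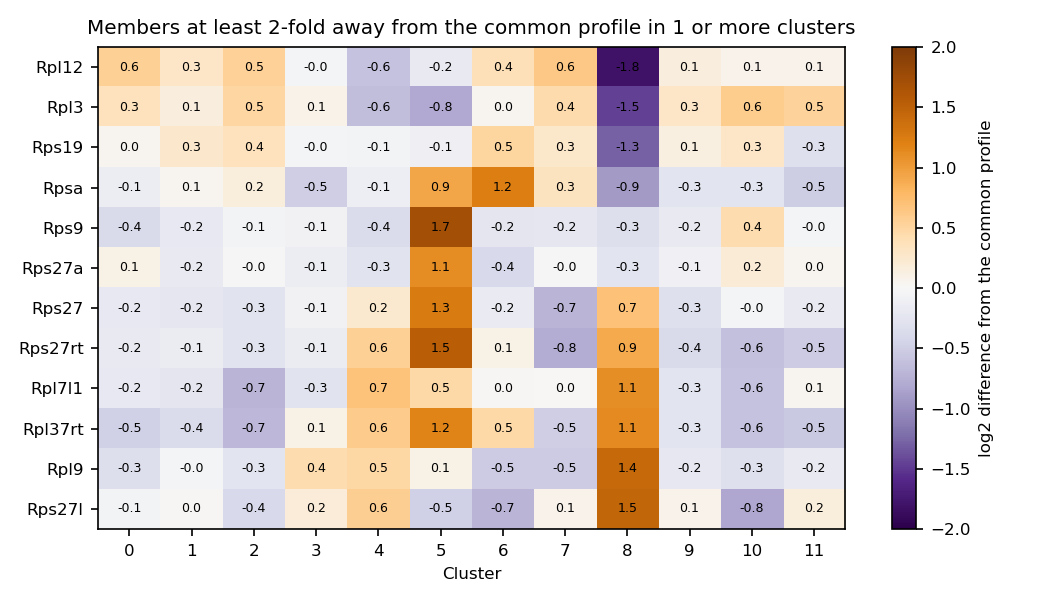
Numbers and colour give the log2 difference from the common profile of the 12 members that lay at least 2-fold from it in 1 or more of the 12 clusters, sorted by cluster 8. Departures of 1 or more are in clusters 5, 6 and 8 only, from -1.81 (Rpl12, cluster 8) to 1.71 (Rps9, cluster 5).

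Members also differed in level. By the mean over clusters the highest were Rpl41, the shortest ribosomal protein, at 52.6 UMIs per 10000, then Rps14, Rps18, Rplp1 and Rpl32 at 41.0, 34.5, 32.2 and 32.2. The lowest structural member was Rpl15 at 3.55. These levels are UMIs per gene, not per length, and reads of a gene with near-identical copies elsewhere can be lost or moved, so their order is uncertain. The 99 symbols marked -ps summed to between 1.39 (cluster 8) and 7.44 (cluster 6) per 10000, small beside the members, and followed the same order of low clusters.

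The balance of the subunits differed most in clusters 5 and 8. The summed small-subunit members were 0.680 times the large-subunit ones in cluster 8 and 0.930 times in cluster 5, with the other 10 clusters between 0.728 and 0.841. In cluster 5, Rps9, Rps27 and Rps27a made 29.1, 25.2 and 15.3 of the 262 small-subunit UMIs per 10000. The median difference from the profile there was 0.04 in small and -0.04 in large members, and in cluster 8 it was -0.17 and 0.01. The ratio of cluster 5 therefore need not hold for small-subunit members in general. In cluster 5, 25 of 31 small and 45 of 46 large members were at least 2-fold lower (54.6 percent of all genes). In cluster 8 it was 31 of 31 and 45 of 46 (32.4 percent of all genes). Differences from the profile went with the length of the coding sequence over the 77 structural members: r with its log2 was 0.56, 0.52, 0.51 and 0.35 in clusters 2, 7, 1 and 9, -0.39, -0.30 and -0.27 in clusters 8, 4 and 5, and between -0.16 and 0.26 in the other 5. Members with longer coding sequences thus tended to lie above the profile in the first 4 clusters and below it in clusters 8 and 4, a relation across genes that share each library. The r of -0.27 in cluster 5 was about as large as the 0.26 of cluster 10, with the opposite sign.

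Groups of members by role are counted against the same shares of all genes, 27.6, 54.6 and 32.4 percent at least 2-fold lower in clusters 4, 5 and 8. Of all 77 structural members, 69, 70 and 76 were lower there. A group in which nearly all were lower thus repeats the whole set and is no result about that group. The 3 stalk proteins (Rplp0, Rplp1 and Rplp2), which recruit elongation factors, were at least 2-fold lower in clusters 5 and 8, and 1 of 3 was in cluster 4. The 6 proteins known to bind Mdm2 when ribosome assembly fails (Rpl5, Rpl11, Rpl23, Rpl26, Rps3 and Rps7) were lower in 6 of 6 in each of the 3 clusters. Of 18 genes of Diamond-Blackfan anaemia, 17, 16 and 18 were lower in clusters 4, 5 and 8. The 4 X-linked members (Rps4x, Rpl10, Rpl36a and Rpl39) were lower in 4 of 4 in all 3. Structural members lie on 19 chromosomes, with 14 on chromosome 7.

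Rack1 and Fau, structural proteins whose symbols fall outside the naming rule, differed from each other. Rack1, a small-subunit scaffold for signalling proteins listed under its older symbol Gnb2l1, had the highest correlation with the profile of all non-members (r = 0.99), with 1.96 per 10000 in cluster 8 and 17.6 in cluster 7. Fau, made as a fusion of a ubiquitin-like protein and the small-subunit protein eS30, did not follow: it measured 16.7 at the lowest (cluster 11), 26.8 at the median and 36.7 at the highest (cluster 10), and r was 0.26. Fau stood at 35.2 in cluster 5 and 24.6 in cluster 8, 1.72 and 1.59 log2 units above the profile. In cluster 5 this was level with Rps9 (1.71), and in cluster 8 it exceeded the highest member, Rps27l (1.46). The profile was -1.30 and -1.69 there, so a gene at its own mean would also lie above it. Fau has the long pyrimidine run printed above, as Rack1 does, so the pair share this feature and differ in profile.

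Other genes of protein synthesis were set beside the members. Of 16 translation genes with TOP mRNAs that passed the level filter, 8, 14 and 11 were at least 2-fold lower in clusters 4, 5 and 8, where the shares of all genes were 27.6, 54.6 and 32.4 percent. Eef1a1, the elongation factor that brings aminoacyl-tRNA to the ribosome, measured 6.75 per 10000 in cluster 8 and 52.1 in cluster 2. Of 23 other translation factors, 6, 14 and 6 were lower in those clusters, which is near or below the shares of all genes and so no result about these factors. Eif1, which guards start codon choice, was highest in cluster 5 at 43.0, and Eif2s2, the beta subunit of eIF2, in cluster 8 at 20.1. Both were thus highest in clusters where members were low.

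Ribosome biogenesis genes separated clusters 2 and 7. Of 13 that passed the filter, 9 were at least 2-fold higher in the cycling-like cluster 7 (6.59 percent of all genes) and 0 in cluster 2 (1.34 percent). In clusters 4, 5 and 8, 9, 8 and 10 were lower, against 27.6, 54.6 and 32.4 percent of all genes, so the count in cluster 5 was near that of all genes. Npm1, a nucleolar chaperone, measured 9.88, 6.47 and 0.98 in clusters 7, 2 and 8. Fbl, the methyltransferase of ribosomal RNA, measured 1.98, 1.14 and 0.13. Structural members were within 1.5-fold in clusters 2 and 7, while Npm1 and Fbl were at least 1.5-fold higher in 7.

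The 47 measured mitochondrial ribosomal proteins that passed the filter were less low in cluster 8. Their median there was -0.46 on the log2 scale, near the -0.41 of all genes, with 9 of 47 at least 2-fold lower (32.4 percent of all genes), while the structural cytosolic members had a median of -2.05. In cluster 5 it was 38 of 47 (54.6 percent of all genes), and in cluster 4 it was 8 of 47 (27.6 percent), below the share of all genes as in cluster 8. Low ribosomal protein mRNA in cluster 8 thus stood beside mitochondrial ribosomal proteins at the level of the average gene.

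**Figure D4:**
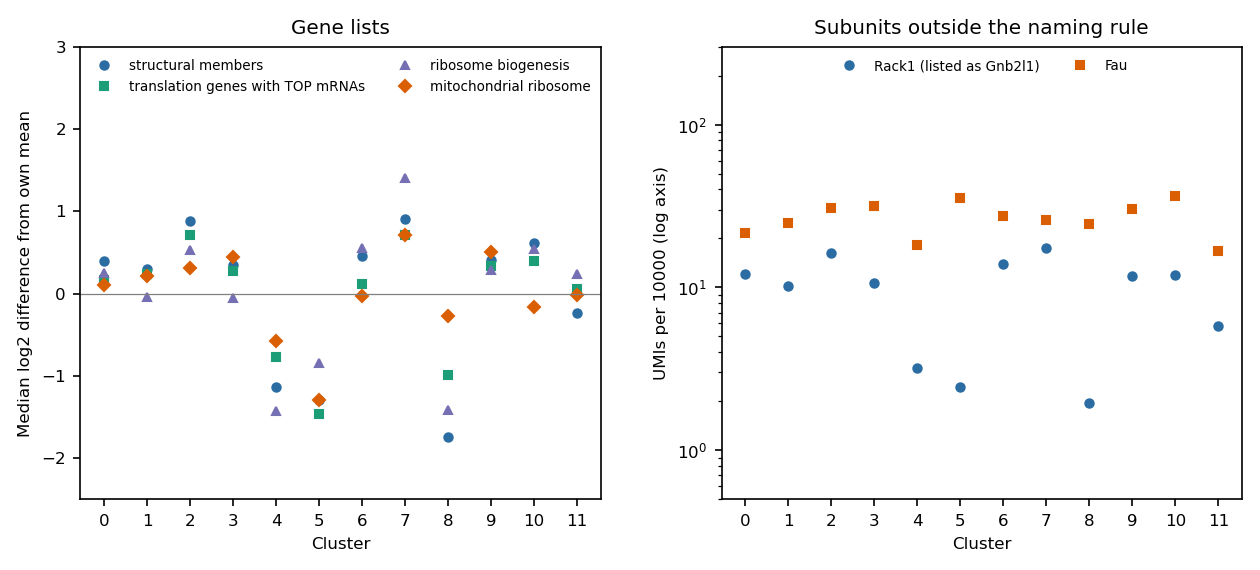
Left, the median log2 difference from the own mean in each of the 12 clusters for 4 gene lists; right, the level of Rack1 and Fau in UMIs per 10000 on a log axis. Mitochondrial ribosomal proteins lie well above the structural members in cluster 8, biogenesis genes lie above them in cluster 7, and Fau stays between 16.7 and 36.7.

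Regulators were sparse. Of 24 genes of the Myc and mTOR pathways, 6 passed the filter. Mxd1, a partner of Max that opposes Myc, measured 10.3, 8.41 and 7.21 per 10000 in clusters 5, 4 and 8, and 0.19 to 2.78 in the other 9 clusters, the reverse of the members. The 6 as a set did not show this: their median log2 folds in clusters 4, 5 and 8 were -0.16, 0.15 and 0.06. Their median correlation with the profile was -0.19. Myc itself reached at most 0.49 (cluster 6) and Larp1 at most 0.56. Of 16 genes of RNA polymerase I, which transcribes ribosomal RNA, 4 passed, and 0, 2 and 1 of these were 2-fold lower in clusters 4, 5 and 8, against 27.6, 54.6 and 32.4 percent of all genes.

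Across the 3193 non-members that passed the filter, 49 had r of 0.9 or more with the profile over the 12 clusters (1.53 percent). After Rack1 the most alike were Eef1b2, Eef1g, Npm3, Rpl19-ps11, Mrps28, Eef1d, Nhp2, Eef1a1 and Hspe1, with r from 0.96 to 0.98. The list holds 4 elongation factor subunits, 2 nucleolar proteins (Npm3 and Nhp2), a ribosomal protein pseudogene, a mitochondrial ribosomal protein and a mitochondrial chaperonin. The most opposite were Gm44292, Cmip, Pxn, Zcchc6 and Noct, with r from -0.93 to -0.84. Noct, the circadian gene of nocturnin, measured 1.37 per 10000 in cluster 8 and 0.16 in cluster 7.

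Paralogs did not all keep step with their parent genes. Rps27l, a paralog of Rps27 and a known target of p53, measured 1.55 per 10000 at the lowest (cluster 5), 6.11 at the median and 11.02 at the highest (cluster 7). Of the Rps27l and Rps27 UMIs together it made 26.7% in cluster 8 (95% exact binomial interval 24.6% to 28.96%) and a similar share in cluster 7 (26.2% to 27.8%), against 5.80% (4.40% to 7.52%) in cluster 5. It thus lay 1.46 log2 units above the profile in cluster 8, where Rps27 was 0.70 above. Cdkn1a, another p53 target, measured 6.52, 6.31 and 1.11 in clusters 8, 5 and 7, so by level the 2 targets peaked in different clusters. Against the profile both lay above it in cluster 8 (Cdkn1a by 2.76) and in cluster 4 (Rps27l by 0.57, Cdkn1a by 2.11). The profile was -1.69 and -1.13 in clusters 8 and 4, and the median of all genes was -0.22 and -0.16 from the own mean. Lying above the profile there was thus common among all genes. Rps27l, at -0.23 and -0.56 from its own mean, was no higher than the median gene. In cluster 5 they went opposite ways (Rps27l -0.48, Cdkn1a 2.32). The part of p53 was not tested.

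Rpl22l1, a paralog that can replace Rpl22, measured 0.827 (cluster 8), 5.58 and 9.89 (cluster 7). Its share of the pair was 54.7% (47.8% to 61.9%) in the enteroendocrine-like cluster 11 and 52.7% (51.6% to 53.7%) in the goblet-like cluster 0, the 2 clusters where it exceeded Rpl22. In cluster 8 it was 24.3% (19.7% to 29.5%). The interval of cluster 11, with about 204 UMIs of the pair, reached below an even share. It also overlapped those of clusters 5 (31.8% to 50.4%) and 10 (37.4% to 48.2%). Only in cluster 0 did Rpl22l1 exceed Rpl22 beyond counting error, and absorptive colonocyte-like cluster 9 had 44.2%.

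Rpl36al, a paralog of Rpl36a, made 40.8% and 39.2% of its pair in clusters 11 and 8, down to 20.3% in cluster 2. Rpl7l1 made 4.18% to 9.69% of its pair with Rpl7. Rpl3l, a form known from striated muscle, was at most 0.320 per 10000 (cluster 5) and was listed at 0 in 8 clusters. Rps4l made 12.7% of its pair in cluster 8, where Rps4x was at 4.03, and 0.281% to 4.06% elsewhere. The single-exon retrocopies Rps27rt and Rps4l, and the pseudogenes Rpl37rt, Rps3a2, Rps3a3 and Rpl6l, resemble their parents closely, so reads may have been split between copies and their values are uncertain.

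**Figure D5:**
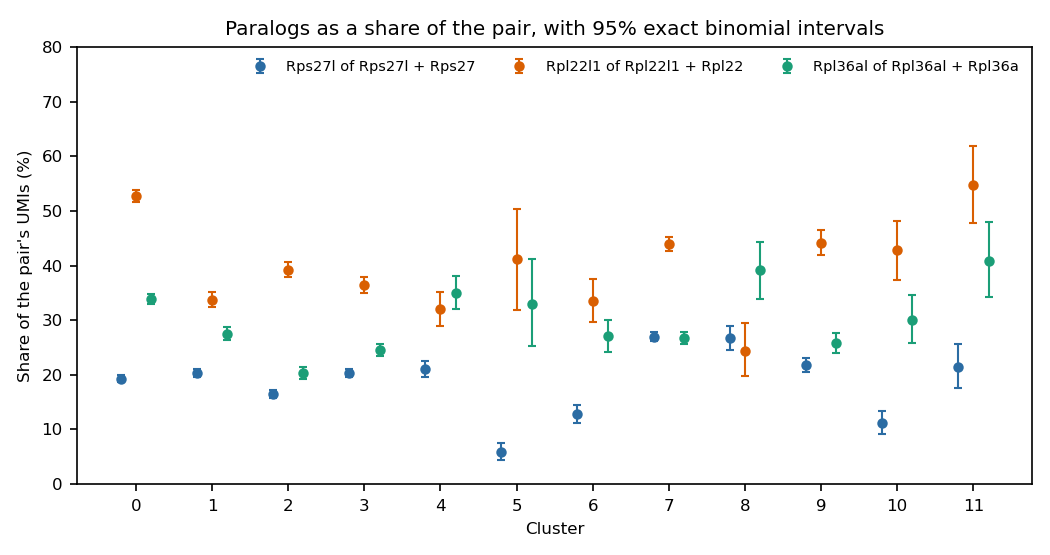
Share (%) of the UMIs of a pair that belonged to the paralog, for Rps27l, Rpl22l1 and Rpl36al, in each of the 12 clusters, with 95% exact binomial intervals that cover counting error only. Rps27l is lowest in cluster 5 (5.80%). Rpl22l1 exceeds its parent only in clusters 0 and 11, and in cluster 11 the interval reaches below an even share.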

How the data were processed

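Reads were handled with Cell Ranger 3.1.0, Seurat 2.3 and the build mm10, which is GRCm38, per the submitters' processing notes. Which annotation, cell filters, doublet treatment and clustering settings were used is not given. Averages do not allow doublets to be called, so none were removed here. The authors deposited 1 value per gene and cluster: mean UMIs per 10000 on a linear scale, read from columns that each sum to 10000. Both libraries are pooled in them, and 0 columns went unused, so no test, replicate check or comparison of libraries was made. Cell numbers and 2299 cell totals were recovered where 10000 divided by an average was whole (relative tolerance 1e-12). A total was kept if at least 2 genes gave it and it was 500 UMIs or more. UMI numbers are approximate, from the harmonic mean of these totals.

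Folds compared a cluster with the mean of the other 11, with a pseudocount of 0.1 that understates the fold of low genes. Members and lists were chosen with earlier results of these data known, and Rpl6l and Rpl37rt were put among the copies once the values were at hand. Named genes were the 5 highest and 5 lowest members, the 8 closest to and 8 furthest from the common profile, the 2 furthest from it either way in each cluster, the role lists, genes set by name, the 10 non-members most like the profile and 5 least like it, and the 4 highest of each pathway list. Rps13, Rps15, Rps25 and Rps27a fall outside this rule and were chosen after their values were seen. Positions are from GENCODE M21 and start sites from RefSeq, both of GRCm38. Some items, and a recount of the share with further subunits added, are not reported here. Steps were checked on simulated data. Python 3.11.15, numpy 2.4.6, pandas 2.3.3, scipy 1.17.1 and matplotlib 3.10.9 were used.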

Additional observations from a re-analysis of the deposited data

How the results depend on the processing

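The count of member and cluster pairs at least 2-fold lower was 224 and lay between 156 and 232 under 9 alternatives. It was 156 without clusters 5 and 6 and 157 without clusters 5 and 10, settings that leave out the low pairs of cluster 5. With all clusters kept, the lowest count was 199, without the 50 highest other genes in the total. The ratio of the highest to the lowest share was 5.73; it was 4.91 without the 50 highest other genes in the total and 5.80 without paralogs and the binding protein. Pairs at least 2-fold higher numbered 9, but 5 with a pseudocount of 1, 4 without clusters 5 and 6, and 5 without clusters 5 and 10. Pairs away from the common profile numbered 13, but 28 with no filter on level, 8 without clusters 5 and 6, and 8 without clusters 5 and 10. Non-members with r of 0.9 or more numbered 49, but 76 without clusters 5 and 10, and 14 with a filter at 5 per 10000, where fewer genes were tested. Where neither the genes, the total nor the clusters changed, the cause was not tested. No paired analysis was possible because the columns carry no library or replicate. Depth limits cluster 11 (19 cells) and cluster 5 most.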
